A study of Mus musculus with 3 samples.

Results

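The chemokines and chemokine receptors described here were 10 genes chosen by name: the ligands Ccl2, Ccl7, Ccl8, Ccl12, Ccl11, Cxcl12, Pf4 and Cx3cl1, and the receptors Cx3cr1 and Ccr2. They were the features of 3 mouse dorsal root ganglion libraries whose symbol matched one of these names, 10 of 31053 features, and all 10 had UMIs in all 3 libraries. Chemokines are small proteins, most of them secreted, that guide migrating leukocytes along gradients by acting on G protein-coupled receptors. Ccl2, Ccl7 and Ccl12 draw monocytes through Ccr2, Cx3cl1 (fractalkine) is made as a membrane-bound protein recognised by Cx3cr1 on macrophages, and Cxcl12 retains or attracts cells that carry Cxcr4. In sensory ganglia these genes are studied because macrophages accumulate around the neurons after a peripheral nerve is injured.

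The study profiled dissociated cells of the lumbar ganglia L3 and L4 by droplet single-cell RNA sequencing (Chromium 3′ v3), which counts unique molecular identifiers (UMIs) per gene and cell. All mice were male C57BL/6J at postnatal week 13. One library came from untreated (naive) mice, one from mice 7 days after a spared nerve injury made on both sides, and one from mice 14 days after the same operation. Each library pooled 8 ganglia of 2 mice, so that each condition had 1 library, animals could not be told apart, and no test between conditions was possible. In this model some branches of the sciatic nerve are cut and others are spared, so that cut and intact neurons share a ganglion. Whole ganglia were dissociated with collagenase and dispase and passed through a 40-micron strainer, so the cells recovered need not mirror the tissue.

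The naive, day 7 and day 14 libraries held 3748, 3281 and 4908 cell barcodes and 23107376, 22343246 and 36550911 UMIs. Cells with under 500 genes or over 20% of UMIs from mitochondrial genes were left out. After 90 predicted doublets of 9662 cells were removed, 3123, 2650 and 3799 cells remained, with medians of 3059, 3972 and 4174 UMIs. Barcode sequences shared between libraries numbered 1 for naive and day 7, 6 for naive and day 14, and 2 for day 7 and day 14. Levels are given as counts per 1e6 UMIs (CPM) of all cells of a class in a library, with exact 95% Poisson intervals in parentheses. Intervals are Clopper-Pearson for a share and conditional binomial for a ratio, and all cover counting error only, not differences between mice. Those of levels and ratios take each UMI as a separate draw, so they also leave out the uneven spread of UMIs between cells. Intervals said to be apart or to overlap are meant in this sense only. Where no UMI was found, a floor of 3 counts gives the level that could have been missed. A gene was called when its ratio to naive was at least 2-fold either way, given at least 20 UMIs over both libraries and at least 20 cells of the class in each.

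Each cell was placed in a class by a score over 6 marker genes (5 for red blood cells), none of them a chemokine or chemokine receptor. Macrophages (C1qa, C1qb, C1qc, Csf1r, Cd68 and Adgre1) numbered 63 in the naive library, 203 at day 7 and 241 at day 14. They were 2.02% (1.55 to 2.57) of naive cells, 7.66% (6.68 to 8.74) at day 7 and 6.34% (5.59 to 7.17) at day 14. Both injured libraries thus held a larger share of macrophages than the naive library, with intervals apart. Fibroblasts numbered 70, 64 and 154, endothelial cells 295, 205 and 324, and pericytes 61, 46 and 101 in the same order. Neurons, with all 6 of their markers detected in each library, numbered 125, 183 and 143.

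The number of cells near the limit of a class differed between classes. Of the macrophages, 3, 0 and 2 lay near the limit on the inside and 1, 1 and 1 on the outside, while fibroblasts had 4, 6 and 12 inside and 4, 3 and 11 outside. Endothelial cells had 4, 1 and 3 inside and 1, 1 and 3 outside. Satellite glial cells had far more, with 116, 77 and 123 inside and 135, 91 and 152 outside. Macrophages carried a median of 1.53%, 1.71% and 1.58% of their UMIs in their own markers, and the next list, that of B cells, reached 0.0274%, 0.0260% and 0.0411%. The class rule itself selects for such a gap. A clustering of the same cells could use the same markers and took its cluster names from them, so it was not independent of the classes. In it nearly all macrophages fell in a single cluster, 63 of 63, 202 of 203 and 240 of 241 cells. Neurons differed in this respect, since their leading cluster held 71 of 125 naive cells and 65 of 143 at day 14, but another cluster led at day 7 with 94 of 183. Day 7 neurons were also shallow, with a median of 2698 UMIs against 64113 in naive and 80460 at day 14. No class was assigned to 455, 364 and 603 cells, 14.6%, 13.7% and 15.9% of the libraries.

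Summed over all cells, most members were higher after injury. At day 7, 6 of 10 members were at least 2-fold higher than in naive cells (Ccl7, Ccl8, Ccl12, Pf4, Cx3cr1 and Ccr2), as were 4.92% of 15307 genes compared, with 6.47% past 2-fold either way. At day 14, 6 of 10 were higher (Ccl2, Ccl8, Ccl11, Pf4, Cx3cr1 and Ccr2), against 5.86% of 15726 genes and 7.26% either way. No member was 2-fold lower at either time, where 1.55% and 1.39% of all genes were. The median log2 ratio of the members was 1.91 at day 7 and 1.13 at day 14, beside 0.02 and 0.05 over all genes. These sums mix the number of cells of a class with the level inside it: macrophages supplied 0.738% of all UMIs in naive, 4.80% at day 7 and 3.03% at day 14, a ratio of 6.51 and 4.11. The sections on each ligand and receptor therefore give levels within the class that held most of its UMIs.

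**Figure D1:**
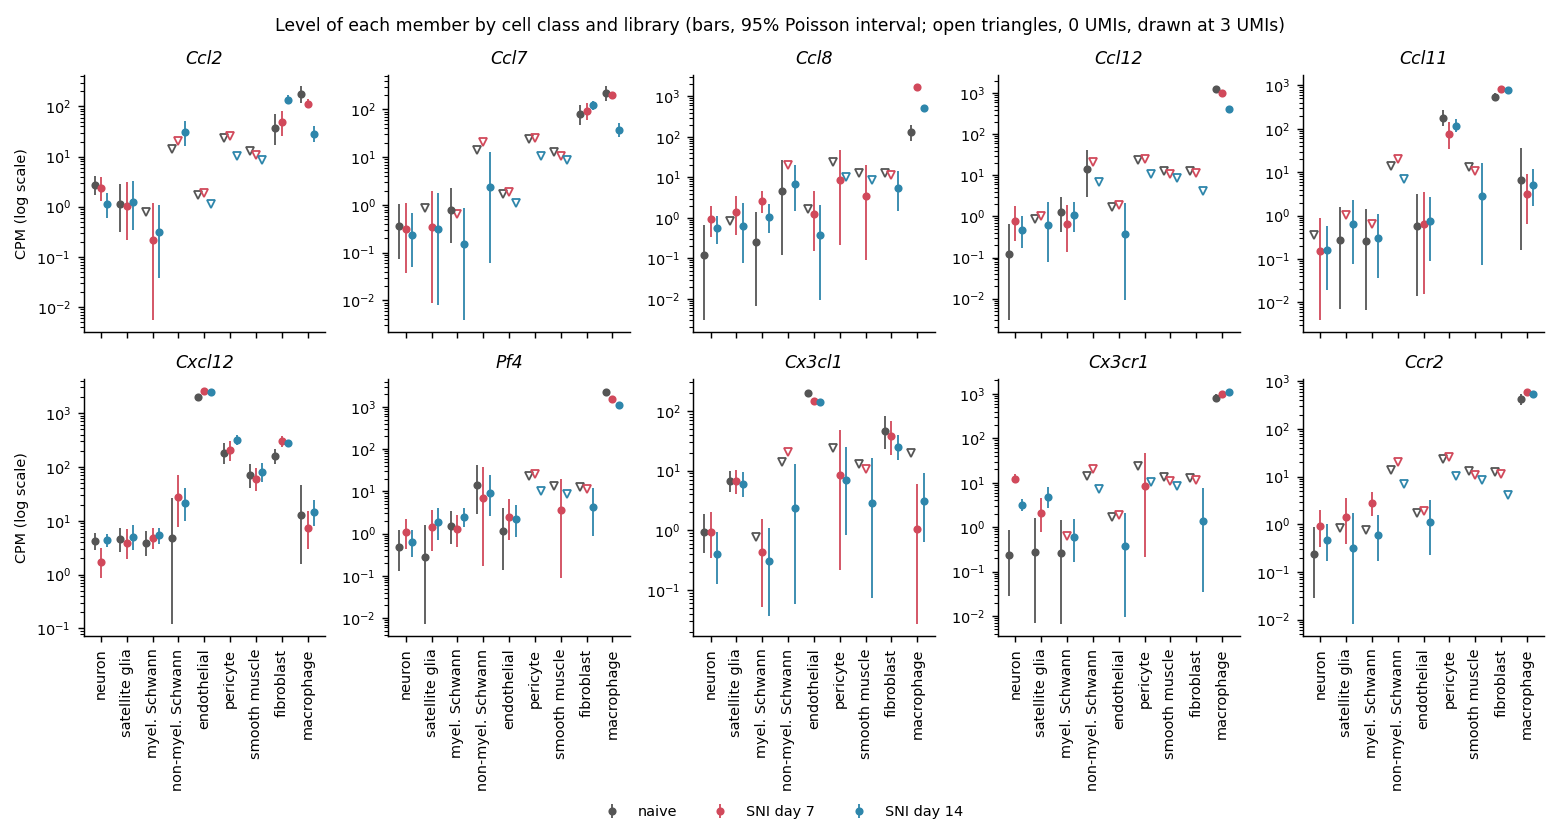
Level of each member in CPM (log axis) in the 9 classes with at least 20 cells in all 3 libraries, coloured by library, with 95% Poisson intervals; open triangles mark 0 UMIs and are drawn at 3 UMIs. Ccl8, Ccl12, Pf4, Cx3cr1 and Ccr2 are highest in macrophages, Ccl11 in fibroblasts, and Cxcl12 and Cx3cl1 in endothelial cells.

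Ccl8, a chemokine of the monocyte chemoattractant group, stood apart from the other macrophage ligands. Over all cells its level was 1.19 CPM in the naive library, 84.1 at day 7 and 17.0 at day 14, from 25, 1651 and 543 UMIs. Macrophages held 80.0%, 97.2% and 91.9% of these UMIs. Within macrophages the level was 129 CPM (78.9 to 200) in naive, 1700 (1618 to 1785) at day 7 and 514 (470 to 562) at day 14. The 3 intervals were apart, with day 7 highest and naive lowest. The ratio to naive was 13.2 (8.49 to 21.6) at day 7 and 3.98 (2.55 to 6.58) at day 14, and day 14 was 3.30-fold lower than day 7. Ccl8 was the 1 of 7 members compared in macrophages to be 2-fold higher at day 7, where 10.1% of 6690 genes were. None of the 7 was 2-fold lower at day 7, beside 4.28% of genes, with 14.4% called either way.

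The rise of Ccl8 was seen in the share of cells as well as in the UMIs of each cell. Of the naive macrophages 8 of 63 had a Ccl8 UMI (12.7%), of those at day 7 107 of 203 (52.7%), and at day 14 86 of 241 (35.7%). Shares were also thinned to 2000 UMIs per cell, which leaves out cells with fewer, here and in every thinned share given. This kept 35 of 63, 166 of 203 and 193 of 241 macrophages, and thinned shares have no interval. For Ccl8 they were 12.6%, 46.7% and 31.3%, in the same order as the shares of all cells. Myelinating Schwann cells, taken as a background class, had it in 0.0751%, 1.07% and 0.436% of cells at median depths of 2494, 3591 and 3575 UMIs, beside 2154, 4276 and 3502 in macrophages. Thinned, the Schwann cell shares at day 7 and day 14 were 0.571% and 0.239%, far under the macrophage shares. Among positive macrophages the median was 2 UMIs in naive, 7 at day 7 and 2.5 at day 14. The UMIs were uneven: at day 7 a single cell carried 161 of 1604 (10.0%) and the 10 richest cells 46.3%. Without the richest cell of each library the log2 ratio at day 7 was 4.07 in place of 3.72.

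Ccl12, a ligand of Ccr2 found in mice, was as much a macrophage gene, but its macrophage CPM was not above naive after injury in the main values. Macrophages held 90.9%, 98.2% and 93.9% of its 219, 954 and 423 UMIs. Its macrophage level was 1285 CPM (1113 to 1477) in naive, 993 (931 to 1059) at day 7 and 409 (370 to 452) at day 14. Naive was highest and day 14 lowest, with all 3 intervals apart, but without its richest cell the naive level was 979 CPM, inside the day 7 interval. At day 14 it was 0.318 (0.268 to 0.379) of naive, and at day 7 0.773, within 2-fold. The day 7 direction was not settled, since the log2 ratio of -0.37 was 0.14 under a stricter class limit and 0.83 as a share of cells. A share of 33.3% of naive, 59.1% of day 7 and 41.1% of day 14 macrophages had a UMI, or 37.9%, 53.1% and 32.2% after thinning. Few naive cells carried much of the signal, since 1 cell held 50 of 199 UMIs (25.1%) and 10 cells held 87.4%. When each cell was counted once, as a share of cells, Ccl12 had a log2 ratio of 0.30 at day 14 in place of -1.65, so the direction turned. The thinned shares ran the other way, but over 35 naive cells. The UMIs per positive cell also fell, with medians of 7, 4 and 2. In myelinating Schwann cells 0.225%, 0.268% and 0.249% of cells had a Ccl12 UMI, and thinned 0.258%, 0.173% and 0.157%.

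Over all cells, Ccl12 was nevertheless higher at day 7, at 10.4 CPM in naive, 48.6 at day 7 and 13.2 at day 14. Its all-cell ratio was 4.65 (4.01 to 5.41) at day 7 and 1.27 at day 14. As a share of all cells the day 14 log2 ratio was 1.68 in place of 0.34, past 2-fold. The day 7 value lay under the ratio of 6.51 in the macrophages' share of all UMIs.

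Pf4, the platelet factor also known as Cxcl4, was detected in most macrophages of every library. Macrophages held 94.5%, 95.3% and 93.6% of its 363, 1566 and 1154 UMIs. The macrophage level was 2216 CPM (1987 to 2463) in naive, 1581 (1502 to 1664) at day 7 and 1113 (1048 to 1182) at day 14. It stepped down from library to library with intervals apart. At 0.714 and 0.503 (0.445 to 0.569) of naive it stayed within 2-fold at both times, although the day 14 value lay next to that limit. The day 14 log2 ratio of -0.99 passed it at -1.17 under the filter of 1000 genes and 10%, at -1.05 under a stricter class limit and at -1.05 when centred. The share of positive macrophages was 79.4%, 80.8% and 78.4%, and after thinning it stepped down as well, at 84.9%, 78.3% and 68.8%. Myelinating Schwann cells had Pf4 in 0.300%, 0.535% and 0.685% of cells, and thinned in 0.233%, 0.262% and 0.427%. Over all cells Pf4 was at 17.3, 79.7 and 36.1 CPM, a ratio of 4.61 (4.11 to 5.18) at day 7 and 2.09 at day 14.

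Ccl2, the monocyte chemoattractant best known in nerve injury, had more than 1 source. Its 88, 147 and 358 UMIs gave 4.19 CPM over all naive cells, 7.49 at day 7 and 11.2 at day 14, ratios of 1.78 (1.36 to 2.35) and 2.67. Macrophages held 30.7% of the naive UMIs, 73.5% at day 7 and 7.82% at day 14. Fibroblasts held 10.2%, 8.84% and 27.4%, and neurons 26.1%, 10.2% and 3.91%. Cells of no class held 28.4%, 4.76% and 55.6%. The day 14 sum rested on 1 such cell, with 183 of the 358 UMIs (51.1%) and 26344 UMIs in all. Its best scores were 0.0510 for non-myelinating Schwann cells and 0.0498 for fibroblasts, both under the limit of 0.1. The all-cell log2 ratio at day 14 was 1.42 with this cell and 0.65 without the richest cell of each library, so the call of Ccl2 depended on it. The day 7 log2 ratio of 0.84 became 1.25 when cells of no class were left out and 1.55 under a filter of 1000 genes and 10% mitochondrial UMIs, past 2-fold.

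Within macrophages, Ccl2 was at 174 CPM (115 to 254) in naive, 114 (93.9 to 138) at day 7 and 28.9 (19.2 to 41.7) at day 14. The naive and day 7 intervals overlapped and day 14 lay under both. At day 14 the ratio was 0.166 (0.0940 to 0.292), and 14.3% of naive, 20.7% of day 7 and 6.22% of day 14 macrophages had a UMI. Thinned shares were 10.1%, 14.6% and 4.14%. A single naive cell with 1105 UMIs, 18.0% of them mitochondrial, held 15 of the 27 naive UMIs. Without the richest cells the day 14 log2 ratio was -1.99 in place of -2.60, and that at day 7 was 0.32 in place of -0.61, so the direction at day 7 was not settled. Under the filter of 1000 genes and 10%, the day 7 log2 ratio was 1.17. Myelinating Schwann cells had Ccl2 in 0 of 1332 naive cells, a floor of 0.225%, and in 0.0892% and 0.125% of cells after injury.

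In fibroblasts Ccl2 was at 37.7 CPM (17.2 to 71.6) in naive, 48.6 (25.9 to 83.1) at day 7 and 137 (111 to 167) at day 14. The day 14 interval lay above both others. The ratio to naive at day 14 was 3.64 (1.84 to 8.19), from 9 and 98 UMIs. These UMIs sat in 18 of 154 cells (11.7%), and 10 of those cells held 88.8%. Positive fibroblasts were 8.57% of naive and 7.81% of day 7 fibroblasts, and thinned shares were 4.73%, 5.75% and 9.18%. Ccl2 was the 1 of 5 members compared that was 2-fold higher in day 14 fibroblasts, where 6.46% of 7135 genes were, and 0 of 5 were lower, beside 3.85%, or 10.3% either way. At day 7, 0 of 5 were called in either direction, beside 4.27% of 4728 genes higher and 5.35% lower, 9.62% in all. With clusters in place of the score the day 14 log2 ratio was 0.48 and with each cell counted once 0.45, so the call was lost under both. The day 7 log2 ratio of 0.37 was -0.95 with clusters and kept its sign in 5 of 8 alternatives, so its direction was not settled.

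Neurons had Ccl2 at low levels, 2.74 CPM (1.74 to 4.12) in naive, 2.33 (1.30 to 3.84) at day 7 and 1.11 (0.605 to 1.86) at day 14. All 3 intervals overlapped, and the day 14 ratio of 0.403 came from 23 and 14 UMIs. It was 1 of 3 members compared in neurons to be 2-fold lower at day 14, beside 1.5% of 13253 genes and 8.63% either way. Counted as a share of cells it was not called, with a log2 ratio of -0.35 in place of -1.31. Of the neurons 10 of 125, 9 of 183 and 9 of 143 had a Ccl2 UMI, at medians of 89886, 176318 and 129897 UMIs per positive cell. A macrophage marker UMI was present in 2 of these 10 cells, 8 of 9 and 6 of 9. Neurons without one held 15 of the 23 Ccl2 UMIs in naive, 1 of 15 at day 7 and 3 of 14 at day 14. After thinning the shares were 0.931%, 0.180% and 0.408%, beside 0.130%, 0.223% and 0.264% of satellite glial cells. Satellite glia had Ccl2 at 1.13 (0.307 to 2.88), 1.05 (0.216 to 3.07) and 1.27 (0.345 to 3.24) CPM, which overlapped the neuronal intervals in all 3 libraries. These glial levels rested on 4 UMIs in 1 of 519 cells, 3 in 2 of 317 and 4 in 3 of 357. Macrophage Ccl2 levels were apart from fibroblast levels, which came next, in naive and at day 7. The naive order rested in part on 1 cell, without which the macrophage level was 78.1 CPM, close to the upper fibroblast limit. At day 14 fibroblasts led, and the macrophage interval overlapped that of non-myelinating Schwann cells, at 30.6 CPM (16.3 to 52.3) from 13 UMIs in 2 cells.

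Ccl7, a further ligand of Ccr2, shared the sources of Ccl2. Over all cells it was at 3.77, 11.5 and 4.66 CPM, ratios of 3.06 at day 7 and 1.24 at day 14. As a share of all cells the day 14 log2 ratio was 1.66 in place of 0.31, past 2-fold. Macrophages held 43.0% of its 79 naive UMIs, 83.2% of 226 at day 7 and 24.2% of 149 at day 14, and fibroblasts 24.1%, 11.1% and 59.1%. Cells of no class held 25.3%, 4.42% and 12.8%. The macrophage level was 220 CPM (152 to 307) in naive, 199 (172 to 230) at day 7 and 37.1 (26.0 to 51.4) at day 14. Naive and day 7 overlapped, and day 14 was lower than both. At day 14 the level was 0.169 (0.103 to 0.278) of naive and 5.37-fold lower than at day 7. Macrophages with a Ccl7 UMI were 15.9%, 31.5% and 11.2%, or 18.3%, 22.9% and 7.51% after thinning. Counted as a share of cells, the day 14 log2 ratio was -0.50 in place of -2.57, within 2-fold. In myelinating Schwann cells the share was 0.150% in naive, 0 of 1121 cells at day 7, a floor of 0.268%, and 0.0623% at day 14.

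Ccl2, Ccl7 and Ccl12 were the 3 of 7 members 2-fold lower in day 14 macrophages, where 4.58% of 6898 genes were lower. Ccl8 was the 1 member higher, beside 11.2% of genes, with 15.8% called either way. In fibroblasts Ccl7 was at 79.6 CPM (47.9 to 124) in naive, 93.5 (60.5 to 138) at day 7 and 123 (98.8 to 152) at day 14, with overlapping intervals. A single naive fibroblast held 14 of the 79 Ccl7 UMIs of its library. Without the richest cells the fibroblast log2 ratios were 1.33 at day 7 and 2.43 at day 14, in place of 0.23 and 0.63, while with clusters in place of the score they were -0.65 and -0.31. Neither direction was settled. The leading source of Ccl7 at day 14 was the fibroblast, above the macrophage with intervals apart, and the order was the opposite in the other libraries.

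**Figure D2:**
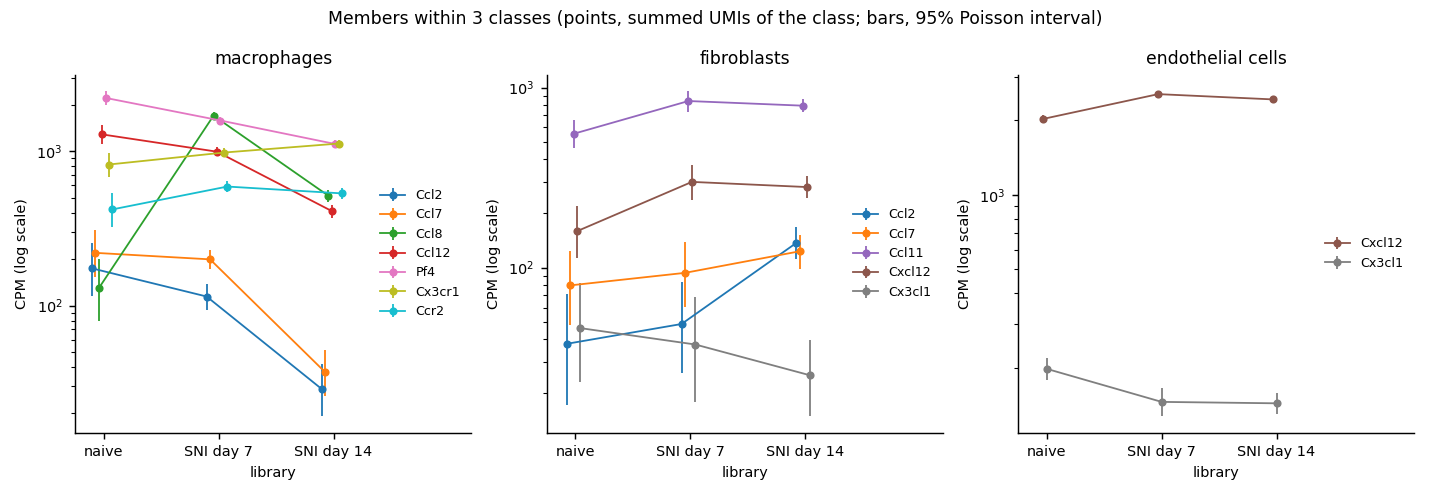
CPM (log axis) of the members compared in macrophages, fibroblasts and endothelial cells in the naive, day 7 and day 14 libraries, each point the summed UMIs of the class with its 95% Poisson interval. Macrophage Ccl8 peaks at day 7 at 1700 CPM, while macrophage Ccl2 and Ccl7 drop to 28.9 and 37.1 CPM at day 14 as fibroblast Ccl2 reaches 137.

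Other cell type markers and stress genes were read beside these macrophage levels. In this and the other classes, counts of such genes past 2-fold took no minimum of UMIs. A gene at 0 in naive counted as higher once it was detected. The 6 macrophage markers summed to 17480, 17299 and 16284 CPM in macrophages, and C1qa was the most abundant. The 12 stress and immediate early genes, which include early responders to dissociation, were all detected and summed to 1550, 1063 and 1200 CPM, led by Jun at 497, 393 and 266. None of the 12 was 2-fold higher at day 7, and 4 were lower, while at day 14 2 were higher and 2 lower. The 6 monocyte markers summed to 207, 91.2 and 66.0 CPM, mostly Ms4a4c at 200.3, 81.6 and 48.5 CPM, with Ly6c2 at 0 in all libraries. Of these 6 markers 2, 4 and 3 were detected. At day 7 2 counted as 2-fold higher and 2 as lower, and at day 14 1 as higher and 1 as lower. The 6 dendritic cell markers summed to 142, 24.4 and 34.0 CPM, led by Cd209a at 129, 4.24 and 11.3. Of these 6 markers 3, 6 and 6 were detected, and 3 counted as 2-fold higher at each time, on few UMIs. At day 7 2 were lower, and at day 14 1. The 6 fibroblast markers summed to 381, 142 and 282 CPM in macrophages, led by Dcn. Other lists rose in macrophages. The 6 myelinating Schwann cell markers, all detected, summed to 271, 372 and 597 CPM. Of 6 neuron markers 5, 6 and 6 were detected, and 3 were 2-fold higher at both times. Whether these shifts had a part in the fall of macrophage Ccl2, Ccl7 and Ccl12 was not tested.

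In fibroblasts, the own markers summed to 40795, 46890 and 44840 CPM. Stress genes summed to 1249, 1395 and 1985 CPM, with 11, 11 and 12 of 12 detected and Egr1 most abundant at 549, 482 and 785. At day 14, 6 of them were 2-fold higher and 2 lower. Myelinating Schwann cell markers also went up in fibroblasts, from 235 to 546 and 1200 CPM, with 5, 6 and 6 of 6 detected. Macrophage markers, with 3, 3 and 5 of 6 detected, reached 30.8 CPM at day 14, with Adgre1 at 0. The part of the stress and Schwann cell genes in the higher fibroblast Ccl2 was not tested.

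Ccl11, or eotaxin, which attracts eosinophils through Ccr3, was the fibroblast ligand. Fibroblasts held 71.4%, 87.2% and 87.2% of its 185, 258 and 649 UMIs, and pericytes 12.4%, 3.49% and 5.24%. The fibroblast level was 553 CPM (463 to 656) in naive, 841 (735 to 959) at day 7 and 792 (729 to 861) at day 14. Both injured libraries lay above naive with intervals apart and overlapped each other. The ratios of 1.52 and 1.43 stayed within 2-fold. Positive fibroblasts were 62.9%, 62.5% and 66.2%, or 54.6%, 57.0% and 58.4% after thinning. Endothelial cells, as a background class, had Ccl11 in 0.339%, 0.488% and 0.309% of cells at median depths of 3956, 4967 and 5861.5 UMIs, beside 2794.5, 3470 and 4154.5 in fibroblasts. Thinned, the endothelial shares were 0.0339%, 0.0792% and 0.0676%. Over all cells Ccl11 was at 8.82, 13.1 and 20.3 CPM, and its ratio of 2.30 at day 14 stood beside a ratio of 1.96 in the fibroblasts' share of all UMIs. Its day 14 log2 ratio of 1.20 was 0.97 under the filter of 1000 genes and 10%, and 0.74 as a share of cells, both within 2-fold.

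Pericytes, the contractile cells of capillaries, were the next class for Ccl11. Their level was 182 CPM (116 to 273) in naive, 76.7 (35.1 to 146) at day 7 and 119 (82.5 to 166) at day 14, lower than in fibroblasts in every library. The pericyte intervals overlapped between libraries. The day 7 ratio was 0.421 (0.172 to 0.945), from 23 and 9 UMIs, and made Ccl11 the 1 of 2 members 2-fold lower in pericytes, beside 4.17% of 2689 genes, or 7.88% either way. Under the filter of 1000 genes and 10% its log2 ratio was -0.40 in place of -1.25, within 2-fold. At day 14, 0 of 2 were called, beside 5.29% of 4333 genes higher and 4.96% lower. Fibroblast markers moved with it, since 4 of 6 were detected in pericytes of each library, at a summed 2979, 2072 and 2304 CPM, with Col3a1 most abundant and Lum and Pdgfra at 0. Their part in the pericyte level of Ccl11 was not tested.

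Cxcl12, which keeps Cxcr4-bearing cells in place along vessels, was the member with most UMIs: 3754, 4247 and 7153. Endothelial cells held 95.1%, 94.7% and 91.5% of them. The endothelial level was 2028 CPM (1962 to 2096) in naive, 2554 (2476 to 2634) at day 7 and 2431 (2373 to 2491) at day 14. Both injured libraries lay above naive, by ratios of 1.26 (1.20 to 1.32) and 1.20 (1.15 to 1.25), well within 2-fold. With 0 of 2 members called in endothelial cells at either time, the background was 1.58% of genes higher and 1.66% lower at day 7, and 2.75% and 1.6% at day 14. Positive endothelial cells were 89.5%, 93.7% and 92.0%, or 84.6%, 88.5% and 85.6% after thinning. Macrophages, as a background class, had Cxcl12 in 3.17%, 3.45% and 4.98% of cells, and thinned in 4.10%, 1.75% and 2.95%.

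Mural cells and fibroblasts carried Cxcl12 at lower levels. In fibroblasts it was at 159 CPM (113 to 219) in naive, 299 (237 to 372) at day 7 and 280 (243 to 322) at day 14, above naive in both injured libraries at ratios of 1.88 and 1.76. In pericytes it was at 182 (116 to 273), 205 (131 to 305) and 322 (260 to 395) CPM, with overlapping intervals. Under a stricter class limit the pericyte log2 ratio at day 14 was 1.71 in place of 0.82, past 2-fold. At day 7 it was 0.82 in place of 0.17. Smooth muscle cells had Cxcl12 at 70.0, 60.7 and 80.5 CPM. With doublets kept their log2 ratios were -1.02 at day 7 and -0.61 at day 14, in place of -0.21 and 0.20. With each cell counted once the day 7 value was 0.33, so neither direction was settled. Neurons had only 4.18 (2.91 to 5.81), 1.71 (0.853 to 3.06) and 4.35 (3.28 to 5.66) CPM, beside satellite glial cells at 4.50, 3.85 and 5.07 and myelinating Schwann cells at 3.87, 4.75 and 5.35. The day 7 neuronal ratio of 0.409 passed 2-fold, as 1 of 3 members compared there and beside 1.92% of 12546 genes. Without the richest cell of each library the log2 ratio was -0.78 in place of -1.29. The satellite glial level at day 7 rested on 1 cell with 9 of 11 UMIs and was 0.704 CPM without it, beside 1.41 in neurons. In all, 6.14% of genes passed 2-fold in neurons at day 7.

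Cx3cl1, the tethered ligand of Cx3cr1, was also endothelial in these data. Endothelial cells held 84.7%, 79.0% and 82.7% of its 411, 290 and 467 UMIs. The endothelial level was 198 CPM (178 to 220) in naive, 145 (127 to 165) at day 7 and 143 (130 to 159) at day 14. Naive lay above both injured libraries, which overlapped, at ratios of 0.735 and 0.726. Positive cells were 50.5%, 53.2% and 53.1%, or 29.8%, 24.5% and 23.3% after thinning. Myelinating Schwann cells had it in 0 of 1332 naive cells, a floor of 0.225%, and in 0.178% and 0.125% after injury.

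Although Cx3cl1 is known as a neuronal chemokine, neurons had 8, 6 and 5 UMIs, or 0.954 (0.412 to 1.88), 0.932 (0.342 to 2.03) and 0.395 (0.128 to 0.922) CPM. Those intervals lay under the satellite glial levels of 6.75, 6.65 and 6.02 CPM, whose own intervals did not reach them. Among classes of at least 20 cells fibroblasts came second, at 46.1 (23.0 to 82.5), 37.4 (17.9 to 68.8) and 25.2 (14.9 to 39.8) CPM with overlapping intervals. At day 7 and day 14 the fibroblast interval also overlapped that of pericytes, which had 1 and 2 UMIs. The 7 dendritic cells at day 7, too few to be ranked, held 4 UMIs. The fibroblast share of 14.3%, 12.5% and 9.09% of cells was 8.60%, 6.96% and 3.99% after thinning. In satellite glia 0 of 2 members were called, beside 1.35% of genes higher and 1.09% lower at day 7, or 2.44% either way. At day 14 the shares were 2.01% and 1.11%, or 3.12% either way.

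**Figure D3:**
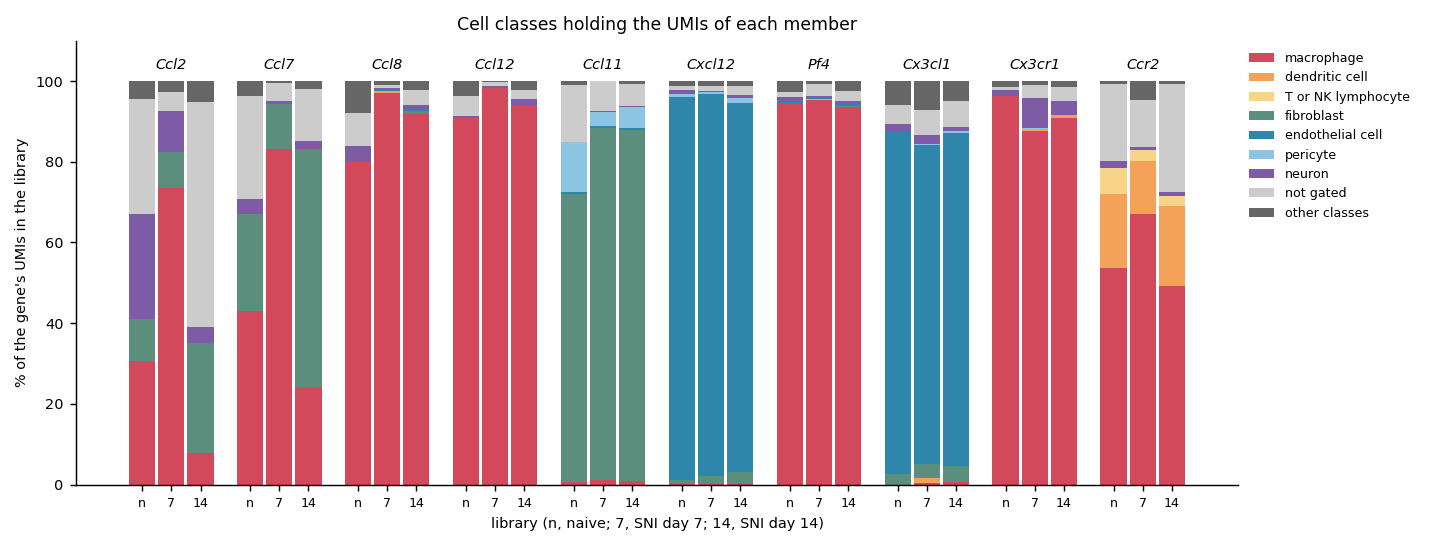
Percent of each member's UMIs in a library held by each cell class, as stacked bars for the naive (n), day 7 and day 14 libraries. Macrophages hold 80.0% to 97.2% of Ccl8, while cells of no class hold 55.6% of Ccl2 at day 14 and dendritic cells up to 19.6% of Ccr2.

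The receptor Cx3cr1, a marker of resident macrophages and microglia, was a macrophage gene in every library. Macrophages held 96.2%, 87.5% and 90.8% of its 132, 1057 and 1198 UMIs. The level within them was 820 CPM (684 to 976) in naive, 980 (918 to 1046) at day 7 and 1122 (1056 to 1190) at day 14. The first 2 libraries overlapped and day 14 lay above both, at ratios to naive of 1.20 and 1.37. Positive macrophages were 68.3%, 80.3% and 80.1%, or 59.7%, 71.6% and 77.5% after thinning. In myelinating Schwann cells the share was 0.0751%, then 0 of 1121 cells, a floor of 0.268%, and 0.249%. Over all cells Cx3cr1 was at 6.29, 53.8 and 37.5 CPM, ratios of 8.55 (7.13 to 10.3) and 5.95, beside 6.51 and 4.11 for the macrophages' share of UMIs.

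Further Cx3cr1 UMIs appeared in cells classed as neurons, and was read beside macrophage markers. The neuronal level was 0.239 CPM (0.0289 to 0.862) in naive, 12.4 (9.86 to 15.5) at day 7 and 3.16 (2.26 to 4.31) at day 14, from 2, 80 and 40 UMIs. All 3 intervals were apart. The ratios were 52.1 (14.0 to 438) and 13.3 (3.44 to 113), so that Cx3cr1 was the 1 of 3 members 2-fold higher in neurons at each time, beside 4.22% of genes at day 7 and 7.13% at day 14. As a share of cells the log2 ratios were 2.04 and 1.98, in place of 5.70 and 3.73. The UMIs were in 2 of 125 naive cells, in 12 of 183 cells at day 7, or 1.78% after thinning, and in 9 of 143 at day 14, or 0.538%. Those 12 cells had a median of 86821.5 UMIs, and 10 of them held 97.5% of the UMIs. Macrophage markers moved in the same direction: all 6 were detected in neurons in each library and summed to 2.51, 23.8 and 12.6 CPM, with C1qb most abundant at 0.596, 5.13 and 3.24. Of the cells with Cx3cr1, 9 of 12 at day 7 and 8 of 9 at day 14 also had a macrophage marker UMI, and in naive 0 of 2. Neurons without a marker UMI held 3 of the 80 Cx3cr1 UMIs at day 7 and 1 of the 40 at day 14, but 2 of 2 in naive. At day 7 the 12 cells with Cx3cr1 held 75 marker UMIs and all other neurons 78. At day 14 these counts were 12 and 148. Cells without Cx3cr1 had a median of 0 marker UMIs at day 7, at a depth of 2401 UMIs, but 1 at day 14, the same as the cells with it. The part of macrophage RNA in the neuronal Cx3cr1 was not tested.

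Ccr2, the receptor that monocytes use to leave the blood, was spread over several leukocyte classes. Macrophages held 53.7%, 66.9% and 49.3% of its 121, 832 and 1049 UMIs, dendritic cells 18.2%, 13.2% and 19.6%, and cells of no class 19.0%, 11.8% and 26.9%. The macrophage level was 420 CPM (324 to 535) in naive, 590 (542 to 642) at day 7 and 533 (488 to 581) at day 14. Day 7 lay above naive, at a ratio of 1.41 (1.09 to 1.85), and day 14 overlapped both at 1.27. Positive macrophages were 23.8%, 33.5% and 27.0%, or 17.2%, 31.7% and 25.5% after thinning. Myelinating Schwann cells had Ccr2 in 0 of 1332 naive cells, a floor of 0.225%, and in 0.803% and 0.249% after injury, or thinned 0.425% and 0.134%.

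Dendritic cells were few but rich in Ccr2. All 21 of them at day 14 fell in a cluster that its markers named as B cells, so their class rests on the marker score alone. Their level was 564 CPM (353 to 853) in naive, 1221 (1003 to 1471) at day 7 and 1044 (907 to 1197) at day 14, from 4 of 5, 7 of 7 and 19 of 21 cells. Both injured libraries lay above naive, although classes of under 20 cells were not compared by a call. At day 7 and day 14 their level was above that of macrophages with intervals apart. T or NK lymphocytes had 426 (184 to 840), 507 (321 to 760) and 369.5 (246 to 534) CPM, in 3 of 8, 8 of 14 and 12 of 26 cells. Of the day 14 Ccr2 UMIs outside any class, 176 lay in 10 cells whose best score was for dendritic cells. Over all cells Ccr2 was at 5.77, 42.4 and 32.8 CPM, ratios of 7.35 (6.06 to 8.96) and 5.69.

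Within macrophages the members did not mark the same cells. Mrc1, a mannose receptor of resident macrophages, was read beside them after the values were seen. In naive macrophages Ccr2 was at 2493 CPM in the 11 cells without an Mrc1 UMI and at 82.6 in the 52 cells with one. At day 7 the levels were 2043 in 13 cells and 500 in 190, and at day 14 744 in 13 and 524 in 228. The gap thus narrowed from library to library, and in the injured libraries most Ccr2 UMIs were in cells with Mrc1, 444 of 557 and 488 of 517. Cells without an Mrc1 UMI had median depths of 1818, 4424 and 1764 UMIs, against 2467.5, 4274.5 and 3628.5 with one.

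Ccl8 showed the reverse pairing. All of its 20 naive and 1604 day 7 macrophage UMIs were in cells with Mrc1, and 495 of 499 at day 14. Pf4 was likewise higher in cells with Mrc1, at 2554 CPM against 138 in naive, 1670 against 163 at day 7 and 1146 against 333 at day 14. Ccl12 was higher with Mrc1 in naive, with all 199 UMIs, and at day 7, at 1047 against 127 CPM, whereas at day 14 the 396 and 718 CPM ran the other way, with 28 UMIs in 4 of 13 cells without Mrc1. The share of cells with Ccl12 was still higher with Mrc1 at day 14, at 41.7% against 30.8%. Ccl8 and Ccl12 went together at day 7, when Ccl8 was at 2271 CPM in cells with a Ccl12 UMI and 686 in cells without. They did not at day 14, at 510 and 518 CPM, nor in naive, at 84.5 and 157 CPM from 5 and 15 UMIs. Ccl2 was higher in macrophages with Ccl7 at day 7, at 200.5 against 71.5 CPM. At day 14 only 3 Ccl2 UMIs lay beside Ccl7, too few to read a pairing. In naive macrophages the pairing could not be read, since 15 of the 17 Ccl2 UMIs beside Ccl7 were in 1 cell. Both receptors were detected together in 13 of 63 (20.6%), 56 of 203 (27.6%) and 55 of 241 (22.8%) macrophages.

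Set side by side, the RNA of ligands and of their receptors fell into different pairs of classes. Signalling between these classes was not measured. Of the Ccr2 ligands, Ccl12 was held by macrophages and Ccl2 and Ccl7 by macrophages, fibroblasts and cells of no class, with a neuronal share that was larger for Ccl2. Ccr2 itself was held by macrophages, dendritic cells, lymphocytes and monocytes, the last with 21 Ccr2 UMIs at day 7 in a class of 3 cells. Cells of no class also held Ccr2. Cx3cl1 was mostly in endothelial cells and Cx3cr1 mostly in macrophages. Cxcl12 was mostly in endothelial cells. Satellite glial cells, which wrap neuronal cell bodies, held 59.9%, 58.5% and 47.1% of the UMIs of its receptor Cxcr4. Cells of no class held 27.2%, 27.9% and 31.4%. The satellite glial Cxcr4 level was 326 CPM (308 to 345) in naive, 301 (281 to 322) at day 7 and 299.9 (281 to 320) at day 14, with overlapping intervals. Pericytes had Cxcr4 at 293 (206 to 404), 145 (84.5 to 232) and 217 (166 to 278) CPM, the naive interval overlapping that of the glia. Neutrophils, at 14, 13 and 24 cells, were higher than the glia in all 3 libraries, at 658 (396 to 1028), 711 (456 to 1059) and 595 (396 to 860) CPM. Positive satellite glia were 67.4%, 70.0% and 70.3%, or 41.4%, 37.8% and 37.7% after thinning, against 2.72%, 2.37% and 2.41% thinned in myelinating Schwann cells. Median depths of satellite glia were 5451, 7910 and 7826 UMIs.

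Other receptors of the members were read in the same way. Ackr3, a scavenger of Cxcl12, was at 50.4 (43.3 to 58.3), 54.9 (46.7 to 64.2) and 39.6 (33.0 to 47.2) CPM in satellite glia. In fibroblasts Ackr3 was at 172 (123 to 233), 59.8 (34.2 to 97.1) and 116 (92.6 to 144) CPM, 2-fold lower at day 7 than in naive with intervals apart. Cxcr4 in macrophages was at 45.2 (18.2 to 93.2), 20.1 (12.1 to 31.4) and 90.7 (72.8 to 112) CPM, higher at day 14 than at day 7. Ccr3, the receptor of Ccl11, had 0, 1 and 2 UMIs in all, so that no receiving class could be named at this depth. Cxcr3, reported to bind Pf4, was at 266 (86.5 to 622), 220 (106 to 405) and 264 (161 to 408) CPM in T or NK lymphocytes. Ackr1, which binds many chemokines without signalling, was at 115, 133 and 112.5 CPM in neurons and at 99.3, 89.4 and 94.2 in myelinating Schwann cells. In endothelial cells Ackr1 had 6.25, 8.89 and 9.29 CPM.

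Ccr1, a receptor of inflammatory ligands on myeloid cells, was higher over all cells after injury. It was at 0.810, 10.6 and 3.10 CPM, ratios of 13.1 (8.01 to 23.0) and 3.82. In macrophages it was at 32.3 CPM (10.5 to 75.4) in naive, 183 (157 to 213) at day 7 and 56.7 (42.7 to 73.8) at day 14. Only day 7 lay apart from the others, the same library in which macrophage Ccl8 was highest. Macrophages with a Ccr1 UMI were 7.94%, 36.5% and 15.8%, or 6.31%, 24.8% and 10.7% after thinning, and it was seen in 1 of 1332, 0 of 1121 and 0 of 1605 myelinating Schwann cells. Neutrophils had Ccr1 at 346.5, 534 and 638 CPM.

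Many of the remaining chemokine ligands were also higher over the whole ganglion. Of 30 other ligands listed, 29 were among the features and 26 had a UMI. At day 7, 12 of 18 with enough UMIs were 2-fold higher and 2 lower, beside 4.92% and 1.55% of all genes, with a median ratio of 2.90. At day 14, 13 of 20 were higher and 1 lower, beside 5.86% and 1.39% of all genes, with a median of 2.58. Of 21 other receptors, all with a UMI, 5 of 10 compared were higher at day 7 and 5 of 11 at day 14, none was lower, and the median ratios were 2.27 and 1.51.

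Several of the ligands that were higher were found in leukocytes. Ccl5, a lymphocyte chemokine, was at 6.58, 19.5 and 24.1 CPM over all cells and at 3997, 3436 and 3259 in T or NK lymphocytes. These held 54.3%, 40.8% and 32.0% of its UMIs, and cells of no class 10.1%, 51.6% and 37.5%. Cxcl16, a membrane-bound ligand of Cxcr6, was at 5.96, 23.4 and 19.2 CPM over all cells and at 284 (207 to 382), 339 (303 to 378) and 358 (321 to 397) in macrophages. Ccl6 was at 4.53, 12.8 and 11.4 CPM and Ccl9 at 2.96, 9.88 and 9.29, and within macrophages Ccl9 was at 213, 131 and 133. Cxcl2, a neutrophil attractant, was at 0.572, 4.12 and 1.78 CPM, and in neutrophils at 416, 1541 and 978. Ccl17 reached 8.25 CPM at day 7 against 0.191 and 0.594, but 148 of its 162 UMIs were in 2 dendritic cells.

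Others with lower counts were Ccl3 (0.477, 1.78 and 1.50 CPM), Ccl22 (0.238, 0.866 and 1.50) and Ccl24 (0.381, 1.27 and 0.938). Cxcl14 was at 2.00, 5.35 and 6.10 CPM. Cxcl9, which draws T cells, was at 1.29, 4.23 and 1.94 CPM, higher at day 7, when 51 of 83 UMIs lay in 4 macrophages. Among receptors of the same list, Cxcr6 was at 0.858, 2.44 and 2.78 CPM and Cxcr3 at 0.334, 1.22 and 1.50, higher in both injured libraries. Ccr9 had 3, 48 and 9 UMIs. Xcr1, a receptor of cross-presenting dendritic cells, had 18, 0 and 75 UMIs, and the day 7 count of 0 had a floor of 0.153 CPM. Cxcr2 was at 1.05, 1.78 and 0.938 CPM, and Ccrl2 at 3.86, 4.79 and 4.35, both within 2-fold.

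The ligand that was lower was neuronal. Ccl1 was at 9.30 CPM (7.35 to 11.6) in naive neurons, 3.11 (1.90 to 4.80) at day 7 and 3.56 (2.59 to 4.76) at day 14, both injured libraries under naive. Over all cells it was at 3.81, 1.07 and 1.41 CPM, ratios of 0.280 and 0.369. Ccl4 was the other ligand lower at day 7, at 1.05, 0.458 and 1.88 CPM, from 22, 9 and 60 UMIs. Ccl27a, at 44.3, 38.4 and 44.7 CPM in neurons, Ccl25, at 11.2, 12.6 and 13.4 over all cells, and Ccl28, at 0.858, 0.611 and 0.751, were within 2-fold. Cxcl10, an interferon-induced ligand of Cxcr3, was within 2-fold over all cells at 21.2, 13.4 and 28.4 CPM, and at 44.2, 40.6 and 60.8 in satellite glia. In endothelial cells it was at 29.0, 3.17 and 47.6 CPM, or 10.3, 0.639 and 13.8 without the richest cell of each library. Cells of no class held 29.7%, 44.7% and 55.3% of its UMIs.

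Genes with a pattern like a member's over classes and libraries were sought among 11053 genes, over 30 sums of a class in a library. The points share libraries and differ in depth, so the correlations of log2(CPM + 1) are descriptions. Ccl8 was most like C1qc (r = 0.931), Trem2 (0.914) and C3ar1 (0.911), and Ccl12 most like Fcgr1 (0.966), C3ar1 (0.964) and Trem2 (0.952). Pf4 was most like Ccl12 (0.928), C3ar1 (0.924) and Fcgr1 (0.913). For Ccl7 the genes were Igf1 (0.963), Ccl2 (0.953) and Serpinf1 (0.861), and for Ccl2 Igf1 (0.884), Ctsb (0.835) and Serpinf1 (0.819). Igf1 is a growth factor made by both macrophages and fibroblasts. Ccl11 was most like Sox9 (0.973), Col6a2 (0.945) and Bmp5 (0.902). Cxcl12 was most like Ctgf (0.920), Cgnl1 (0.916) and Tmem204 (0.915), and Cx3cl1 most like Crispld1 (0.905), Mcc (0.892) and Fzd6 (0.889). Cx3cr1 paired with Fcrls (0.934), Adgre1 (0.930) and Cd163 (0.929), and Ccr2 with Il10ra (0.971) and Cd48 (0.965).

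Of the 10 members, 5 lie side by side on the plus strand of chromosome 11. In GENCODE vM21 (GRCm38) these are Ccl2 (ENSMUSG00000035385, chr11:82035571-82037453), Ccl7 (ENSMUSG00000035373, chr11:82045712-82047525), Ccl11 (ENSMUSG00000020676, chr11:82057823-82062955), Ccl12 (ENSMUSG00000035352, chr11:82101845-82103400) and Ccl8 (ENSMUSG00000009185, chr11:82115185-82116799). The run spans 81229 bases and holds no other protein-coding gene but Gm17268, which overlaps Ccl2 on the minus strand. Neighbours in this run differed in class, since Ccl11 was a fibroblast gene between Ccl7 and Ccl12. In macrophage CPM at day 14, Ccl8 was above naive and Ccl12 below it, while the day 7 direction of Ccl12 was not settled. From day 7 to day 14 Ccl8 was 3.30-fold and Ccl12 2.43-fold lower in macrophages. In shares of all cells both were higher than in naive at both times. Ccl1, the neuronal ligand, is the next protein-coding gene after Ccl8.

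**Figure D4:**
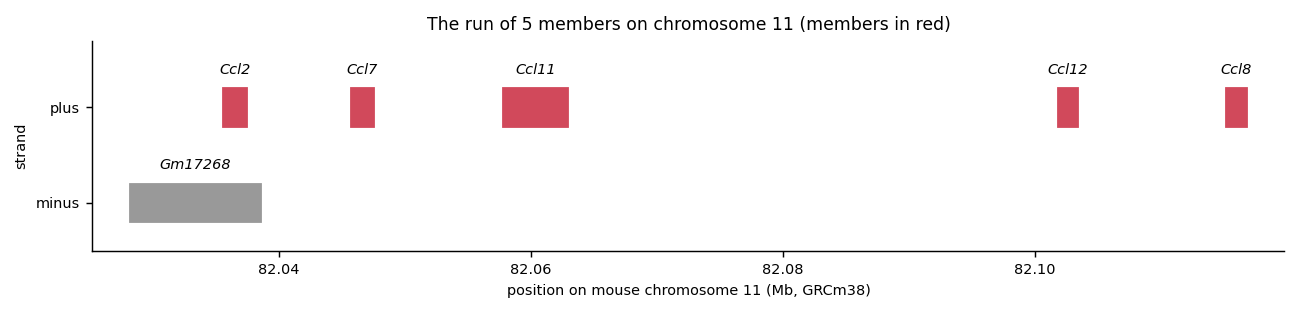
Map of the 5 members on mouse chromosome 11 in Mb (GRCm38), with genes on the plus strand above and the minus strand below, members in red. From left to right the members are Ccl2, Ccl7, Ccl11, Ccl12 and Ccl8 over 81229 bases.

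The other members were Cxcl12 (ENSMUSG00000061353, chr6:117168535-117181367, plus strand), Pf4 (ENSMUSG00000029373, chr5:90772435-90773383, plus), Cx3cl1 (ENSMUSG00000031778, chr8:94772009-94782427, plus), Cx3cr1 (ENSMUSG00000052336, chr9:119901616-120069879, minus) and Ccr2 (ENSMUSG00000049103, chr9:124101950-124113557, plus). Of the 31053 features, 30934 were found in this annotation by identifier, and so were all 10 members. Because the Ccl genes are paralogs, their transcripts were compared in stretches of 50 bases. No stretch of a member occurred in another member, and for 8 of the 10 none occurred in any other gene. Of 4453 stretches in Cx3cr1 12 (0.269%) and of 6758 in Ccr2 129 (1.91%) were found in other genes. How reads shared by such stretches were counted is uncertain. The Cx3cr1 locus overlaps 9 other genes, 3 of them on its own strand.

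Promoters of 300 bases, from 250 before to 50 after the start, were matched by symbol in a RefSeq table (GRCm38.p6) for 7 of 10 members, and Ccl2, Ccl7 and Ccl11 had no entry. The following 3 are shown because Ccl8 and Ccl12 are neighbouring macrophage genes and Pf4 was another ligand of that class. They are chr11:82114935-82115234 for Ccl8, chr11:82101595-82101894 for Ccl12 and chr5:90772185-90772484 for Pf4, all on the plus strand. Capitals mark matches on either strand to GAGGAA (the core of the box bound by PU.1, a factor of myeloid cells), TTGCNNAA (C/EBP type) or TATAAAA (the box near the start of many genes).
Ccl8: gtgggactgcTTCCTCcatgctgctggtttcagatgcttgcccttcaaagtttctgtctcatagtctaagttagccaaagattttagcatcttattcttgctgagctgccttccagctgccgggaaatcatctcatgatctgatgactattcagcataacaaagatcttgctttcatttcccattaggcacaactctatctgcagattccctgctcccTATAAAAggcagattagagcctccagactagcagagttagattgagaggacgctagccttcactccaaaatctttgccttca
Ccl12: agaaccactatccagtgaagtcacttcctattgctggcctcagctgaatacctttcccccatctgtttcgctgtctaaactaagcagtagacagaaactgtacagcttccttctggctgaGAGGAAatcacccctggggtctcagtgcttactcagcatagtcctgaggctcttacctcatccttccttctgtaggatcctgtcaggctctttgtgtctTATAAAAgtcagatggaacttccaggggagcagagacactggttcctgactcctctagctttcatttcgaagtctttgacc
Pf4: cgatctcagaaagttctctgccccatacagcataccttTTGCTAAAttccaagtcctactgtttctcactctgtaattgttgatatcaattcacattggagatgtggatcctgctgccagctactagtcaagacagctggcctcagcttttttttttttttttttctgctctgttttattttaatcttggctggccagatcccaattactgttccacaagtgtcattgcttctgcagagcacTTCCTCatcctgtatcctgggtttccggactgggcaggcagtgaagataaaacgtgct
GAGGAA or its complement was in the promoters of 4 of 7 members (Ccl8, Ccl12, Pf4 and Cx3cl1) and in 28.3% of all 32851 promoters of this length. TATAAAA was in 3 of 7 (Ccl8, Ccl12 and Cx3cl1), beside 5.48% of all, and TTGCNNAA in 1 (Pf4), beside 10.8%. In Ccl8 the TATAAAA match began at -32 from the start, in Ccl12 at -31 and in Cx3cl1 at -6. TTCNNNGAA and TGANTCA, the patterns of STAT and AP-1 sites, were in none of the 7, beside 8.30% and 7.81% of all promoters. Matches of different motifs did not overlap in the 3 promoters shown. A match describes letters only, and says nothing of binding.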

How the data were processed

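The libraries were made from L3 and L4 ganglia with Chromium 3′ v3 chemistry. According to the submitters' processing notes, the authors deposited UMI counts made with Cell Ranger 3.0.2 on mm10. The gene annotation is not given in the sources used here, and the paper gives no methods for the single cell data. The labels were followed for sex and age, where the paper's mouse methods name others. They were also followed for the injury. For it the paper's results name a partial sciatic nerve ligation and its discussion the spared nerve injury of the labels. The deposited names of the injured libraries carry an abbreviation that can stand for a vehicle, which the labels do not mention, so whether one was given is not known. The counts were read with Python 3.11.15, numpy 2.4.6 and scipy 1.17.1, and doublets were predicted with scanpy 1.11.5 at an expected 5%. A cell joined a class with at least 3 markers, a score of at least 0.1 and 2 times the next score. Leiden clusters (leidenalg 0.10.2, resolution 1, 30 components, 15 neighbours) without chemokine genes served as an alternative. Others were other cell filters, doublets kept, a stricter gate (4 times), shares of cells, centred ratios, a minimum of 5 UMIs, and, added after the data were seen, gated cells only and the removal of the richest cell. Other genes named were ligands and receptors with at least 50 UMIs, receptors paired with a member, and the 3 genes most like each member, and Mrc1 was added after values were seen. The members and lists were chosen with earlier results of these data known. Some genes under these rules are not reported here. Since 1 library stood for each condition, no test was made.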

Additional observations from a re-analysis of the deposited data

Results flagged for a closer look

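Some log2 ratios to naive differed between cell classes, with intervals apart. For Ccl2 at day 14 the ratio was 1.86 in fibroblasts against -1.31 in neurons, and 1.86 in fibroblasts against -2.60 in macrophages. For Ccl11 at day 7 it was 0.60 in fibroblasts against -1.25 in pericytes. For Cxcl12 at day 7 it was 0.33 in endothelial cells and 0.91 in fibroblasts, each against -1.29 in neurons. These differences were not tested.

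Cells that joined no class held some members above the interval of the naive cells of no class. Ccl2 was at 52.6 CPM at day 14, or 4.26 without 1 cell, and Cxcl12 at 42.3 CPM at day 14. Ccl8 was at 6.04 CPM at day 7 and 5.28 at day 14, and Pf4 at 21.8 and 7.93. Of the 20 Ccl8 UMIs at day 14, 17 were in 1 cell. Cx3cr1 was at 16.3 CPM at day 7 and 10.8 at day 14, and Ccr2 at 45.5 and 74.5. These differences were not tested.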

How the results depend on the processing

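With 1 library per condition, no paired analysis could be made. A minimum of 5 UMIs cannot move a ratio, and centring moved none by much. Over the other 8 alternatives, 368 of 430 log2 ratios stayed close, 61 moved and 1 past 2-fold changed sign. Signs turned for 33 of the 430, the rest of them within 2-fold in the main analysis, with 14 of these where each cell was counted once. The value past 2-fold was Ccl12 in day 14 macrophages, at 0.30 with each cell counted once, against -1.65. That setting ignores UMIs per positive cell and moved 38 ratios in all.

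Over all cells, 6 to 7 members were higher at day 7, 4 to 6 at day 14 and 0 lower. In the main analysis 4.92% and 5.86% of all genes were higher there, and 1.55% and 1.39% lower. Within classes it held 47 ratios of members over both times. In the classes with a share given above, 1.35% to 10.1% of all genes were higher at day 7 and 2.01% to 11.2% at day 14. Lower were 1.09% to 5.35% and 1.11% to 4.96%. Shares under the alternatives are not given. Within classes, 2 members' ratios were 2-fold higher at day 7. There were 4 under a strict filter (1000 genes, 10% mitochondrial), and 12 with a minimum of 5 UMIs, which admits sparser genes. Clusters, each cell counted once and removal of the richest cell gave 3. The 2 lower ratios at day 7 became 1 under the strict filter, 1 under the stricter gate, and 3 with doublets kept or each cell counted once. The 3 higher ratios at day 14 became 4 under the strict filter or with doublets kept, 5 with no filter, 10 with clusters, 5 with each cell counted once, 11 with a minimum of 5 UMIs and 5 without the richest cell, the last chosen after the data were seen. The 4 lower ratios became 1 with each cell counted once, and 5 under the stricter gate, when centred and with a minimum of 5 UMIs. Apart from the wider UMI minimum, the cause was not tested.

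Depth limits what can be read: naive macrophages were 63 cells at a median of 2154 UMIs, and day 7 neurons had a median of 2698. Low counts and single cells carried several values. Mice within a library cannot be told apart, so no interval covers variation between animals.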
